A study of Mus musculus with 27 samples.

Results

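The effect of etomoxir on the regenerating mouse liver was measured as a change common to both times after resection. All mice were wild-type C57/BL6J, and RNA came from whole liver tissue after 70% hepatectomy. The 8 libraries with etomoxir were compared with the 14 resected libraries without it, and time after resection (24 or 48 h) was a covariate, so that each library was set against others of its own time. These are 22 of the 27 libraries of the series, and the 5 sham libraries were not used. The groups were PHx24 (24 h after resection, n = 7), PHx24_ETO (24 h, with etomoxir, n = 4), PHx48 (48 h, n = 7) and PHx48_ETO (48 h, with etomoxir, n = 4). Mice of the etomoxir groups had 12.5 mg/kg by intraperitoneal injection, with 4 h between injection and surgery. The mice of the 48 h group had another dose 24 h after surgery, so time and number of doses cannot be told apart in the etomoxir libraries. The labels give no age or sex of the mice and do not say whether mice without etomoxir received a vehicle. Nor do they state 1 mouse per library, so a p-value covers the variation among libraries, which may be technical.

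Etomoxir blocks carnitine palmitoyltransferase 1 irreversibly. This enzyme of the outer mitochondrial membrane joins long-chain fatty acids to carnitine. The acylcarnitine then crosses the inner membrane through the carrier Slc25a20, is turned back into acyl-CoA by Cpt2 and enters beta oxidation, whose acetyl-CoA feeds the citric acid cycle and ketone body synthesis. Peroxisomes shorten very long chains by a pathway of their own. In liver many genes of these steps are activated by the nuclear receptor PPARA, which binds fatty acids and their derivatives. A resected liver takes up fatty acid from the circulation and stores it as droplets while its hepatocytes prepare to divide.

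Libraries held 15165292 to 18446372 counts, and 12021 genes with an FPKM (fragment count scaled to gene length and library size) of at least 1 in at least 4 of the 22 libraries were tested. Hepatocyte markers dominated in every library (12 genes summed to 28377.9 to 52888.1 FPKM). PHx24_ETO replicate 2 stood apart from its group: 8.58% of tested genes lay apart from its 3 companions, against at most 2.3% in any other library, and its median correlation with its group was 0.9329, against at least 0.9674 elsewhere. Skeletal muscle transcripts were high in PHx24 replicate 1 (12 markers summing to 1976.2 FPKM) and PHx48 replicate 3 (635.9 FPKM) and present in PHx48_ETO replicate 4 (93.2 FPKM), against group medians of 0.462 to 7.03 FPKM. PHx48 replicate 3 also held pancreas transcripts (171.4 FPKM summed, against a group median of 9.42). The fat cell marker Adipoq was 7.69 FPKM in PHx48 replicate 3 and 5.26 FPKM in PHx24 replicate 1, and at most 0.857 FPKM in the other libraries.

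With etomoxir, mRNA levels rose for several genes of fatty acid import and oxidation and fell for several genes of amino acid breakdown and urea synthesis and for a few regulators and desaturases of lipid synthesis. Of 12021 genes, 313 (2.6%) changed at an adjusted p under 0.05 (edgeR's quasi-likelihood test, Benjamini-Hochberg adjustment), 166 higher (1.38%) and 147 lower (1.22%). Only 22 rose and 33 fell by 2-fold or more, and the median log2 fold change of all genes was -0.00188. Without PHx24_ETO replicate 2 the count was again 313 (160 higher, 153 lower), but 210 genes (67.1%) were common to both sets. Without PHx24 replicate 1 and PHx48 replicate 3 the count was 181 (89 higher, 92 lower). Single libraries also moved it by more than 1.5 times: it was 172 without PHx24 replicate 3, 158 without PHx24 replicate 4, 152 without PHx24_ETO replicate 3, 202 without PHx24_ETO replicate 4, 134 without PHx48_ETO replicate 1 and 158 without PHx48_ETO replicate 2.

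All 313 called genes had the same sign at 24 h and 48 h when each time was estimated separately. They were chosen by the main effect in these same libraries, which favours the same sign and a low p at each time. The counts that follow from this choice are a description and no separate test. Of the 313 genes, 212 (67.7%) also had an unadjusted p under 0.05 at each time, 106 higher and 106 lower. A further 80 reached it at 24 h only and 21 at 48 h only. The shared genes moved by a median absolute log2 fold change of 0.54 at 24 h and 0.47 at 48 h, and 140 of the 212 moved more at 24 h. The test within 24 h alone called 337 genes (2.8% of those tested, 179 higher) and that within 48 h alone 31 (0.258%, 18 higher), of which 133 and 26 belonged to the main effect. The main effect had 164 genes that neither time alone called. Of the genes called at 24 h, 255 (75.7%) had the same sign at 48 h, against 59.1% of all genes tested. Of those called at 48 h, 29 of 31 (93.5%) had the same sign at 24 h. Across all genes tested, the correlation of the log2 fold changes at the 2 times was 0.288 (Pearson, a description, since genes are not independent and each time has its own set of libraries). Without PHx24_ETO replicate 2 this correlation was 0.291, the shared genes numbered 238 and the 24 h test called 159.

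**Figure D1:**
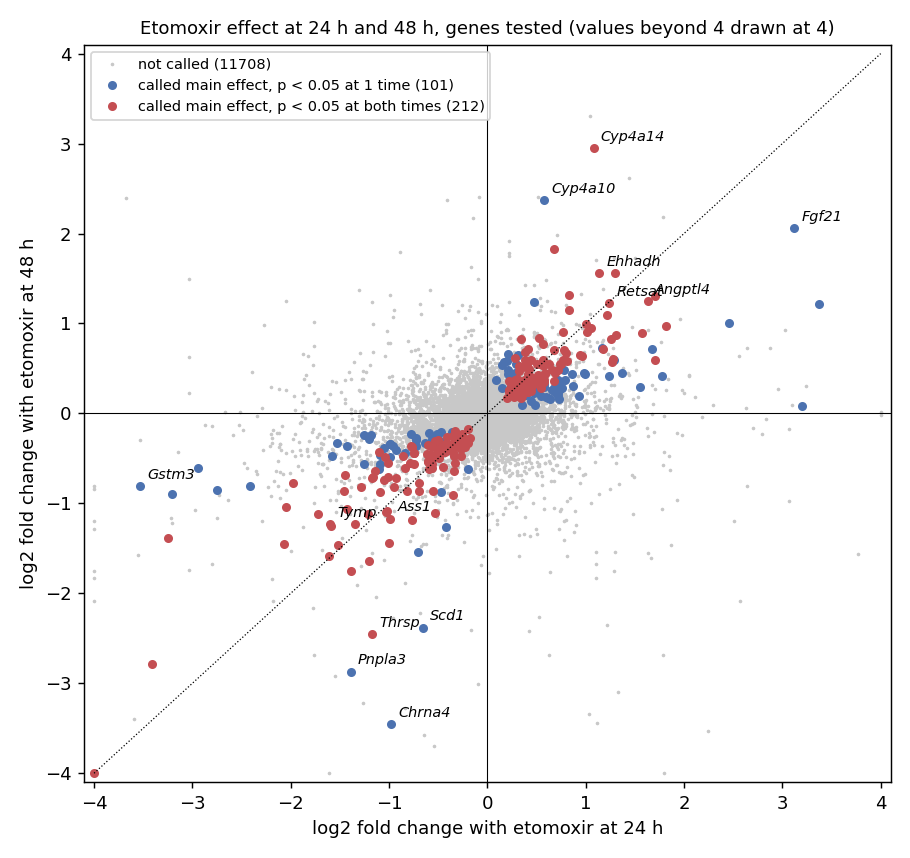
Log2 fold change with etomoxir at 24 h (x axis) and at 48 h (y axis) for each gene tested; red points passed the main test and had p under 0.05 at both times, blue points passed it with p under 0.05 at 1 time, grey points did not pass, and the dotted line marks equal effects, with values beyond 4 drawn at 4. All 313 coloured points have the same sign on both axes, which choosing them by the main effect in the same libraries favours.

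Cpt1a encodes the liver form of the enzyme that etomoxir blocks, and its mRNA rose. At 24 h it was 86.9, 83.7, 51.3 and 56.7 FPKM with etomoxir, against 35.1 to 46.3 (median 40.8) without it. At 48 h it was 93.0, 66.9, 51.8 and 59.1 FPKM, against 37.9 to 53.4 (median 46.5). The groups did not overlap at 24 h, and at 48 h 1 treated library lay inside the untreated range. It rose by 0.65 on the log2 scale (SE 0.11, adjusted p = 0.00298), or 1.57-fold, with 0.74 at 24 h and 0.55 at 48 h, and Cpt1a kept its call without any single library. The muscle form Cpt1b stayed below the level tested, at most 0.67 FPKM in any library. Cpt2, the inner membrane partner, was not called (log2 fold change 0.21, 95% interval 0.02 to 0.40, adjusted p = 0.222). Its effect was 0.11 at 24 h and 0.30 at 48 h. At 24 h the groups overlapped (80.3 to 98.6 with and 66.3 to 94.5 FPKM without etomoxir).

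Slc25a20, the carrier that passes acylcarnitine through the inner membrane, was among the most regular changes. It was 27, 30.4, 29.9 and 28.4 FPKM with etomoxir at 24 h, against 18.0 to 23.7 (median 19.8). Its levels at 48 h were 22.7, 22, 28.4 and 27.6 FPKM, against 13.0 to 21.3 (median 16.3). Every treated library lay above every untreated library of its time. Its main effect on the log2 scale was 0.53 (SE 0.076, adjusted p = 0.000994), and 0.50 and 0.55 at the 2 times. Slc22a5, which brings carnitine into the cell, rose by 0.84 (adjusted p = 0.000994), from means of 9.24 ± 1.74 to 16.0 ± 4.45 FPKM at 24 h (SD, n = 7 and 4) and from 4.25 ± 0.76 to 7.97 ± 1.70 FPKM at 48 h. Slc27a2, a very long chain acyl-CoA synthetase and transporter, rose by 0.46 (adjusted p = 0.0246). Over the list of 12 tested genes of fatty acid activation and the carnitine shuttle, 4 rose (33.3%, against 1.38% of all genes) and none fell, with a median log2 fold change of 0.32. The acyl-CoA synthetases Acsl1, Acsl3, Acsl4 and Acsl5 were not called (-0.08 to 0.17).

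**Figure D2:**
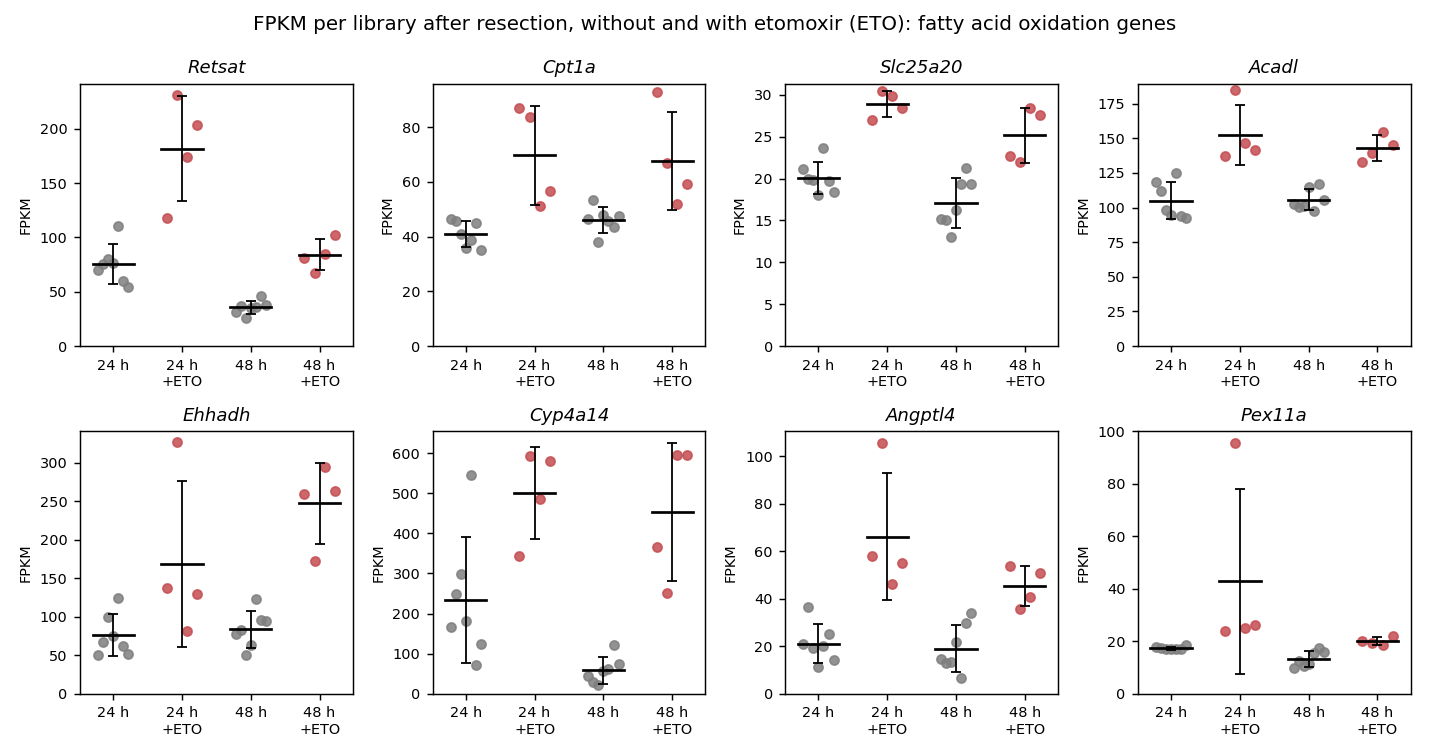
FPKM of 8 genes of fatty acid oxidation and PPARA response in each library (dots), with the mean (line) and SD (bar) of each group; grey without and red with etomoxir, at 24 and 48 h. For Slc25a20, Acadl, Retsat, Angptl4 and Pex11a the red dots lie above all grey dots of the same time; Pex11a has 1 red dot at 95.6 FPKM, from PHx24_ETO replicate 2.

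In the main fit, mitochondrial beta oxidation was the gene list with the largest share of called genes. This rank did not hold in every fit. Without PHx24 replicate 1 and PHx48 replicate 3, 7 of its 20 genes were called, against 17 of 33 PPARA targets. Of the 20 tested members of the beta oxidation list, counting ketone body synthesis, 13 rose in the main fit (65%, against 1.38% of all genes) and none fell. The median log2 fold change was 0.33 (0.21 at 24 h and 0.44 at 48 h). Acadl, the long-chain acyl-CoA dehydrogenase, was 137.5, 184.9, 146.6 and 141.3 FPKM with etomoxir at 24 h, against 92.7 to 124.7 (median 98.1). The 48 h levels were 132.7, 139.3, 154.7 and 145.3 FPKM, against 97.2 to 117.1 (median 102.9). The groups were apart at both times, by 0.47 on the log2 scale (SE 0.070; adjusted p = 0.00105). Acadm, the medium-chain enzyme, rose by 0.45 (adjusted p = 0.0112). At 48 h its values (146.1, 130.3, 174.9 and 148.5 FPKM) were all above the untreated 87.7 to 107.3, but at 24 h PHx24_ETO replicate 2 (57.6 FPKM) was below every untreated library (58.7 to 82.1), while the other 3 were 95.9, 98.5 and 81.5. Eci2, which moves double bonds so that unsaturated chains can be oxidized, rose by 0.69 (adjusted p = 0.00629).

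The trifunctional protein subunits Hadha and Hadhb rose by 0.33 and 0.37, Decr1, needed for polyunsaturated chains, by 0.40, Eci1 by 0.44, Acad11 by 0.35 and the very long chain dehydrogenase Acadvl by 0.25 (adjusted p from 0.0188 to 0.0481). Etfdh, which hands the electrons of these dehydrogenases to the respiratory chain, rose by 0.33 (adjusted p = 0.0329). The electron carriers Etfa and Etfb (0.05 and 0.01), the short-chain enzymes Acads (-0.02) and Echs1 (-0.05), Hadh (0.20) and Acaa2 (0.25) were not called. Acat1, which also serves ketone body synthesis, rose by 0.55 (adjusted p = 0.0437), and Bdh1, of the same pathway, was not called (0.27, adjusted p = 0.34). The number of members called was 14 without PHx24_ETO replicate 2, 7 without PHx24 replicate 1 and PHx48 replicate 3, and 4 without PHx24_ETO replicate 3. It was 8, 7 and 5 without PHx24 replicate 1, 3 or 4, 6 without PHx24_ETO replicate 4, and 7 and 5 without PHx48_ETO replicate 1 or 3. With DESeq2 it was 13 and with limma 11.

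Promoters of genes that rose are shown because several moved together and because PPARA is known to bind, with its partner RXR, pairs of the core motif AGGTCA set 1 base apart. Sequences are from RefSeq, build GRCm38.p6, and hold the bases before the annotated start that lie in no gene of the table, on the strand of the gene, with a core motif on either strand in capitals.
Cpt1a, chr19:3323051-3323300, plus strand: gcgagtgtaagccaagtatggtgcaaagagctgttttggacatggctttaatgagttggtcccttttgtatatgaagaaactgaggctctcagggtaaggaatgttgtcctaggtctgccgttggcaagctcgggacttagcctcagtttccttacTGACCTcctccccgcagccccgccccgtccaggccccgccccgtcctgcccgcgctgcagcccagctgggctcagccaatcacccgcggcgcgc
Acadl, chr1:66863310-66863559, minus strand: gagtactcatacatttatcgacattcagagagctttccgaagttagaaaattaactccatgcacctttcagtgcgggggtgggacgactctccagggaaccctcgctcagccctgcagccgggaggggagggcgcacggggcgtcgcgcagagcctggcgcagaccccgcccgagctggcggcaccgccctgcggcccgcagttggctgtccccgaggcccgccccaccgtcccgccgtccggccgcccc
Acadm, chr3:153944644-153944893, minus strand: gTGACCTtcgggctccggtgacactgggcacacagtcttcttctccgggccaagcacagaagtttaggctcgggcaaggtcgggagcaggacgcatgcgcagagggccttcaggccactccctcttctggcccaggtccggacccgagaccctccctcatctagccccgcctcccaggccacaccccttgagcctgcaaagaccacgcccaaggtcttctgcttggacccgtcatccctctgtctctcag
Ehhadh, chr16:21787835-21788084, minus strand: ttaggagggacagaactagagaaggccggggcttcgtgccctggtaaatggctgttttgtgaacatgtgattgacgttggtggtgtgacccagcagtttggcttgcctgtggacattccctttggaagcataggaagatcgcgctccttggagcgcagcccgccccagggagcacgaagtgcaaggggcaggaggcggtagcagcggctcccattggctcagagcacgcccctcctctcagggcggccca
Retsat, chr6:72598414-72598474, plus strand: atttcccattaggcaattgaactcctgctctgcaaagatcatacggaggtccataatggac

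Cpt1a holds 1 core motif, from base -94 before its start, Acadm holds 1, from base -249, and the other 3 stretches hold none. Promoters of 250 bases were found for 8532 of the tested genes. The core motif was in 13.5% of them, in 19 of the 124 promoters of genes that rose (15.3%) and in 19 of the 112 of genes that fell (17%). The repeat with 1 base between was in 3 of the 8532 and in none of the called genes. With any base at position 4 of each core motif it was in 29 (0.34%), again in none of the called genes. These shares describe only the letters within these windows.

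Of 20 tested peroxisomal genes 3 rose (15%, against 1.38% of all genes) and none fell, with a list median of 0.20. Without PHx24 replicate 5, 6 were called higher. Ehhadh, the peroxisomal bifunctional enzyme and a classic PPARA target, was 136.8, 326.8, 81.1 and 129.7 FPKM with etomoxir at 24 h, against 49.8 to 124.5 (median 67.4). Its levels at 48 h were 258.8, 171.9, 295.1 and 263.5 FPKM, against 50 to 122.6 (median 82.7). At 48 h all 4 treated libraries were above the untreated range, and at 24 h 3 of 4 were. The log2 fold change was 1.35 (SE 0.21, adjusted p = 0.00178), and 1.15 without PHx24_ETO replicate 2. Pex11a, which drives division of peroxisomes, was 24.0, 95.6, 25.2 and 26.4 FPKM at 24 h, against 16.9 to 18.6, and 20.3, 19.5, 18.5 and 22.2 FPKM at 48 h, against 9.74 to 17.3. It rose by 0.95 (adjusted p = 0.0144), and by 0.56 (adjusted p = 0.00173) without PHx24_ETO replicate 2. Ech1 rose by 0.54 (adjusted p = 0.00322). Acaa1a had a log2 fold change of 0.17 and Cat, catalase, of -0.07, and neither was called.

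Retsat, a retinol saturase and PPARA target, had the smallest adjusted p of all genes tested. It was 118.3, 231.4, 174.1 and 203.4 FPKM with etomoxir at 24 h, against 54.5 to 111.0 (median 76.0). At 48 h it was 81.2, 67.3, 85.2 and 102.0 FPKM, against 25.9 to 46.1 (median 36.3). No treated value overlapped an untreated value at either time. Its main effect on the log2 scale was 1.24 (SE 0.12), or 2.36-fold, with 1.24 at 24 h and 1.23 at 48 h. Its adjusted p was 8.31e-06, and at most 4.78e-05 in the 22 fits without a single library. Retsat lies on GRCm38 chromosome 6 (72598475 to 72608425) and its neighbour Elmod3 (72565922 to 72598413) lies 61 bases away (the stretch printed above). Elmod3, at mean levels of 3.11 to 5.92 FPKM over the 4 groups, rose by 0.57 (adjusted p = 0.0168). The kit does not mark strand, but the table's gene models do not overlap.

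The cytochromes of the Cyp4a family hydroxylate the far end of fatty acids and respond strongly to PPARA. Cyp4a14 was 343.8, 592.6, 485.4 and 580.6 FPKM with etomoxir at 24 h, against 70.6 to 544.7 (median 180.3). Its levels at 48 h were 364.9, 252.4, 596.4 and 595.0 FPKM, against 21.0 to 121.9 (median 57.1). The groups overlapped at 24 h and were apart at 48 h. The log2 fold change was 2.10 (SE 0.37, adjusted p = 0.00424), with 1.08 at 24 h and 2.95 at 48 h. Cyp4a10 (1.55), Cyp4a31 (1.28) and Cyp4a32 (0.99) rose as well (adjusted p from 0.00541 to 0.0118). For Cyp4a10 the effect was 0.57 at 24 h (unadjusted p = 0.0853) and 2.37 at 48 h. Untreated levels were lower at 48 h than at 24 h in all 4 genes. Cyp4a10 had means of 257.7 ± 53.7 and 254.2 ± 81.5 FPKM with etomoxir (SD, n = 4 each), and of 170.4 ± 80.6 and 49.0 ± 18.5 FPKM without it (n = 7 each), at 24 h and 48 h. Near-identical members of this family can take each other's reads, so the single values are uncertain.

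Angptl4, a secreted inhibitor of lipoprotein lipase, was 58.0, 105.5, 46.3 and 54.9 FPKM with etomoxir at 24 h, against 11.3 to 36.4 (median 20). At 48 h it was 53.8, 35.8, 40.8 and 50.7 FPKM, against 6.64 to 34.2 (median 14.6). The groups were apart at both times, by 1.45 on the log2 scale (SE 0.24; adjusted p = 0.00238). Vnn1, a pantetheinase, rose by 1.08 (adjusted p = 0.00195), Fabp2, an intestinal-type fatty acid binding protein, by 0.59 (adjusted p = 0.00264) and Hsdl2, a peroxisomal protein of fatty acid metabolism, by 0.59 (adjusted p = 0.00238). In all, 19 of 33 tested PPARA targets rose (57.6%, against 1.38% of all genes) and none fell. The median log2 fold change was 0.69 (0.62 at 24 h and 0.82 at 48 h). The count was 17 without PHx24_ETO replicate 2, 17 without PHx24 replicate 1 and PHx48 replicate 3, and at least 14 when any single library was left out. Some of its genes, such as Cpt1a, stand in other lists too, so the lists are not independent. Fabp3, the muscle type binding protein, was its 1 member with a negative estimate (-2.65, adjusted p = 0.428), with a mean of 19.3 FPKM in PHx24, the group of the library richest in muscle transcripts.

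Ppara itself was called with little margin. It was 14.8, 20.9, 13.3 and 14.2 FPKM with etomoxir at 24 h, against 7.31 to 11.6 (median 8.84), and all treated libraries were higher. Its levels at 48 h were 19.3, 10.7, 5.98 and 12.0 FPKM, against 6.74 to 11.8 (median 8.61), and the groups overlapped. The log2 fold change of 0.59 (adjusted p = 0.0458) kept its call in 5 of the 22 fits without a single library, with an adjusted p of up to 0.126. Creb3l3, a liver factor that works with PPARA, rose by 0.45 (adjusted p = 0.0368), with treated libraries apart at both times, and had an adjusted p of 0.0584 without PHx24_ETO replicate 2. Fgf21, a fasting hormone and target of PPARA and of ATF4, was 8.05, 29.6, 2.95 and 1.78 FPKM with etomoxir at 24 h, against 0 to 6.02 (median 0.122). The 48 h levels were 1.28, 0.662, 1.36 and 0.722 FPKM, against 0 to 0.987. Its log2 fold change of 2.74 (adjusted p = 0.0481) was 1.92 (adjusted p = 0.165) without PHx24_ETO replicate 2, and it kept its call in 4 of 22 such fits.

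PHx24_ETO replicate 2 had far higher levels of several lipid genes than the other treated libraries of its time. Pdk4, which shuts off pyruvate oxidation, was 71.7 FPKM there and 4.39, 6.67 and 4.36 FPKM in its companions, against 3.43 to 17.4 without etomoxir. Plin2, the main coat protein of liver fat droplets, was 919.0 FPKM there and 169.4, 166.6 and 186.9 in its companions, against 103.5 to 208.1. Cidec, which fuses droplets, was 163.6 FPKM there and 9.90, 14.5 and 12.7 in its companions, against 1.89 to 24.5. At 48 h Plin2 was 278.7, 225.2, 258.1 and 177.2 FPKM, against 126.6 to 229.6 (median 138.8). Plin2 was called (0.95, adjusted p = 0.0472), but had a log2 fold change of 0.44 (adjusted p = 0.103) without that library. Pdk4 (1.0, adjusted p = 0.239) and Cidec (1.71, adjusted p = 0.129) were not called, and without it had 0.13 and 0.59. Acot2, a mitochondrial acyl-CoA thioesterase, was called at 1.44 (adjusted p = 0.0249). Without that library it had 0.88 (adjusted p = 0.10), and its effect at 24 h was -0.28 (unadjusted p = 0.4). Its rise at 24 h thus rested on that library. At 48 h alone its 15.2, 11.6, 19.5 and 11.3 FPKM lay above the untreated 3.16 to 7.17. The related Acot1, which can share its reads, was not called (0.54, adjusted p = 0.298). Acot1 had -0.76 at 24 h without that library, and 1.15 at 48 h.

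**Figure D3:**
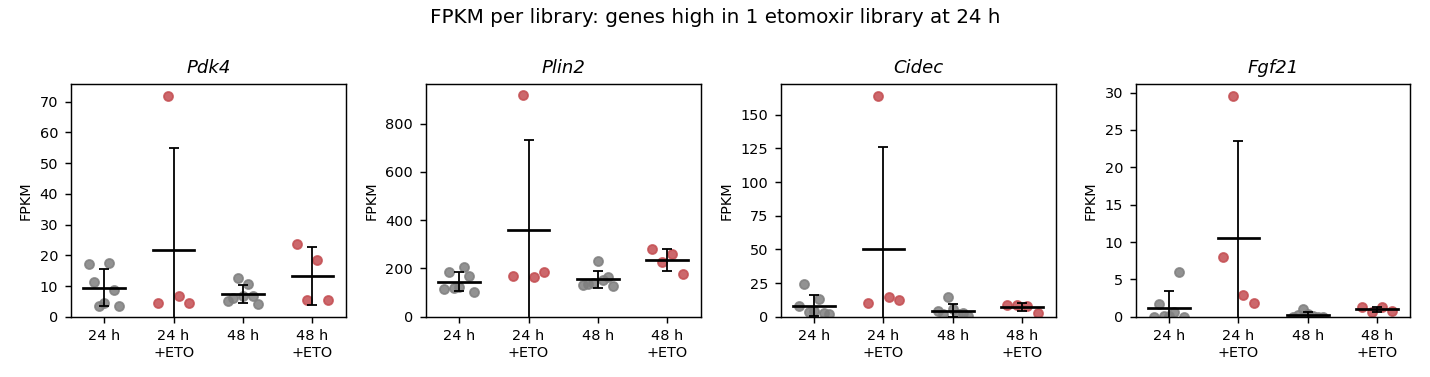
FPKM of 4 lipid genes in each library (dots), with the mean (line) and SD (bar) of each group; grey without and red with etomoxir. The highest red dot at 24 h is PHx24_ETO replicate 2 in every panel, at 71.7 FPKM for Pdk4, 919.0 for Plin2, 163.6 for Cidec and 29.6 for Fgf21.

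Of 18 tested genes of droplets and lipolysis 3 rose and 1 fell (against 1.38% and 1.22% of all genes), with a median of 0.36, or 0.17 without PHx24_ETO replicate 2. Only 1 was called higher when PHx24 replicate 3, 4 or 7, PHx48 replicate 1 or 2, or PHx48_ETO replicate 1 or 2 was left out. Besides Plin2, Mgll, which cleaves monoacylglycerol, rose by 0.57 (adjusted p = 0.007), and Fitm2, needed for droplet formation, by 0.36 (adjusted p = 0.0401, and 0.0749 without PHx24_ETO replicate 2). Pnpla3, a droplet protein known as a target of Srebf1, fell by 2.32 on the log2 scale (adjusted p = 0.0216). It was 0.821, 0.576, 1.30 and 0.282 FPKM with etomoxir at 48 h, all below the untreated 1.96 to 14.4, and at most 1.45 FPKM at 24 h in either group. Its adjusted p was up to 0.0555 when PHx48_ETO replicate 1 or replicate 2 was left out. Pnpla2, the main triglyceride lipase, was not called (0.35, adjusted p = 0.393).

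Of 20 tested genes of lipoproteins 3 rose and 1 fell (against 1.38% and 1.22% of all genes). Mttp, which loads lipid onto apolipoprotein B, rose by 0.35 (adjusted p = 0.0293) from means of 44.3 ± 5.29 to 61.2 ± 8.89 FPKM at 24 h (SD, n = 7 and 4) and from 47.4 ± 4.97 to 56.6 ± 7.20 FPKM at 48 h. Apoa1 rose by 0.50 (adjusted p = 0.0347) and Apoa4 by 1.14 (adjusted p = 0.0415), both mostly at 24 h (0.73 and 1.78, against 0.26 and 0.42 at 48 h). Apom fell by 0.39 on the log2 scale (adjusted p = 0.0278, and 0.059 without PHx48_ETO replicate 2), and Apob was not called (0.16). Mttp lost its call without PHx24_ETO replicate 3, PHx24_ETO replicate 4 or PHx48_ETO replicate 1 (adjusted p up to 0.0648). No member was called higher without PHx24_ETO replicate 3, without PHx24_ETO replicate 4, or without PHx24 replicate 1 and PHx48 replicate 3 together. Only 1 was when PHx24 replicate 1, 3, 4 or 7, PHx24_ETO replicate 2, or PHx48_ETO replicate 1 or 2 was left out.

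Of 24 tested genes of fatty acid and triglyceride synthesis, 4 fell and 1 rose (20.8% called, against 2.6% of all genes). The number that fell was 2 without PHx24_ETO replicate 3 or replicate 4. The median was -0.26, with -0.03 at 24 h and -0.55 at 48 h. Thrsp (Spot 14), a regulator of lipogenesis, was 12.3, 28.3, 14.7 and 12.6 FPKM with etomoxir at 24 h, against 19.6 to 66.4 (median 36.8). Its levels at 48 h were 10.1, 10.5, 20.9 and 36.8 FPKM, against 40.1 to 237.4 (median 72.5). All treated libraries were below all untreated ones at 48 h, and 3 of 4 were at 24 h. Its main effect on the log2 scale was -1.77 (SE 0.38, adjusted p = 0.0172).

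Srebf1, the transcription factor that drives lipogenic genes after feeding, was 23.3, 11.9, 18.5 and 13.0 FPKM at 24 h, against 12.3 to 72.7 (median 48.6), and 53.6, 47.7, 55.5 and 37.4 FPKM at 48 h, against 56.6 to 109.5 (median 80.4). The groups were apart at 48 h and overlapped at 24 h. It fell by 1.05 on the log2 scale (adjusted p = 0.0293), and missed the threshold without PHx24_ETO replicate 3 or replicate 4 (adjusted p up to 0.0582). Its gene overlaps Rai1 on the other strand, whose reads cannot be told from it without strand. Scd2, a desaturase, fell by 1.43 (adjusted p = 0.0188), from means of 1.93 to 0.854 FPKM at 24 h and of 5.06 to 1.64 FPKM at 48 h. The untreated mean at 48 h was raised by PHx48 replicate 3 (14.9 FPKM), since the next highest untreated library had 4.22 FPKM. Scd1, the main liver desaturase, was 97.3, 84.7, 129.8 and 271.3 FPKM at 48 h, all below the untreated 314.7 to 1345.8. At 24 h its 80.0 to 277.7 FPKM overlapped the untreated 134.1 to 546.7. It had a main effect of -1.45 (adjusted p = 0.0464), which kept its call in 8 of 22 fits without a single library.

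Fasn, fatty acid synthase, was not called (-0.65, adjusted p = 0.216), with 0.09 at 24 h and -1.51 (unadjusted p = 0.000109) at 48 h. At 48 h its 21.0, 19.1, 39.7 and 20.2 FPKM overlapped the untreated 33.1 to 125.6 in 1 library. Acly, Acacb and Acss2 had the same pattern (-0.04, 0.02 and -0.24 at 24 h and -1.59, -1.77 and -1.43 at 48 h) and were not called. The rise in the list was Lpin2, a phosphatidate phosphatase (0.96, adjusted p = 0.0472), with 1.55 at 24 h and 0.29 at 48 h. Its call held only in the fits without PHx24_ETO replicate 3 or 4, PHx48 replicate 5 or 6, or PHx48_ETO replicate 2, 3 or 4, and was lost when any other single library was left out. Ppard, a receptor related to PPARA and a gene outside the lists, chosen after its value was seen, had a main effect of -1.11 (adjusted p = 0.0293).

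**Figure D4:**
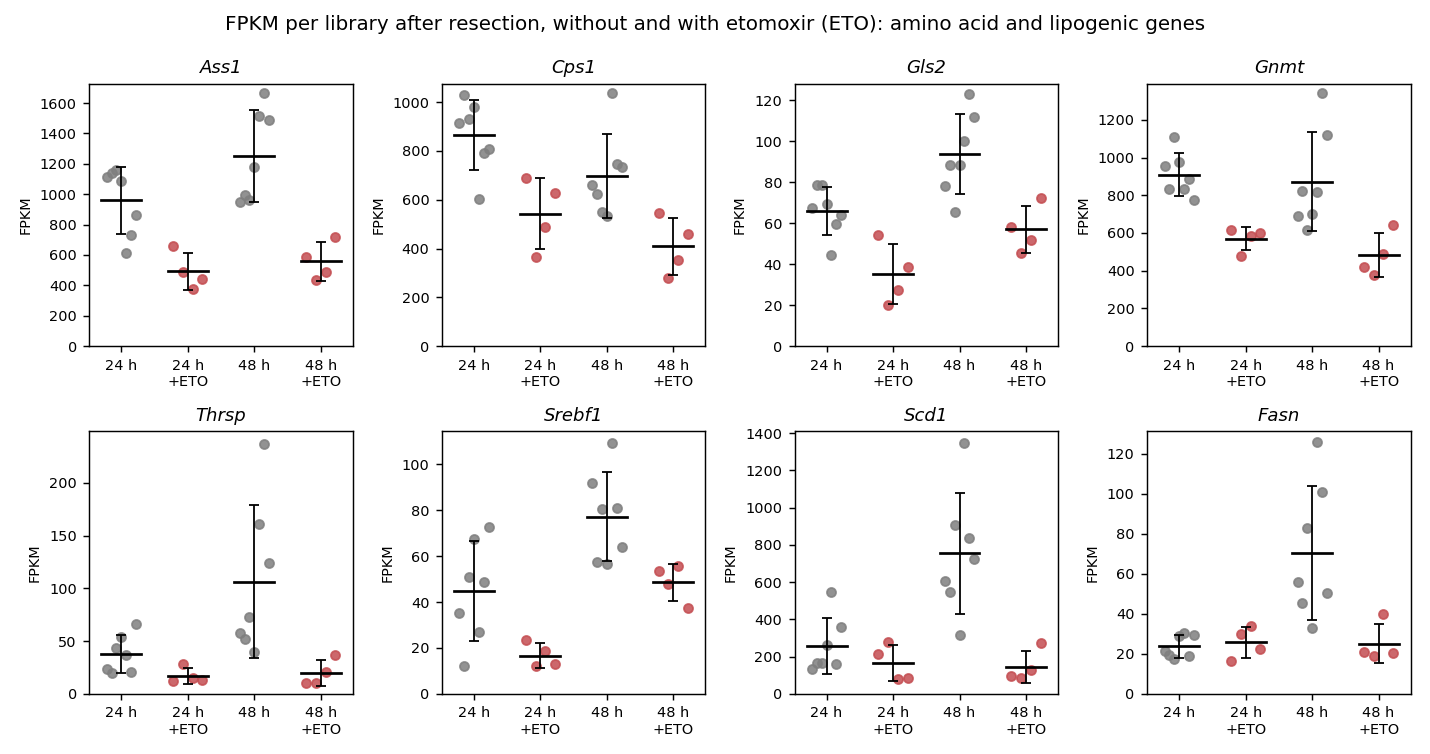
FPKM of 4 genes of amino acid metabolism (top) and 4 lipogenic genes (bottom) in each library (dots), with the mean (line) and SD (bar) of each group; grey without and red with etomoxir. Ass1, Cps1, Gls2 and Gnmt have lower red means at both times; of the lipogenic genes, Srebf1 differs more at 24 h and Thrsp, Scd1 and Fasn differ more at 48 h, and Fasn was not called.

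Of 27 tested genes of the urea cycle and amino acid breakdown, 8 fell (29.6%, against 1.22% of all genes) and none rose, with a median of -0.45 (-0.42 at 24 h and -0.40 at 48 h). Without PHx24_ETO replicate 2 the 24 h median was -0.24. The number that fell was 5 when PHx24_ETO replicate 3, PHx48_ETO replicate 1 or PHx48_ETO replicate 2 was left out. Ass1, which joins citrulline to aspartate in the urea cycle, was 661.1, 490.4, 373.0 and 440.2 FPKM with etomoxir at 24 h, against 611.5 to 1162.2 (median 1086.5). At 48 h it was 585.1, 432.7, 489.9 and 721.2 FPKM, against 947.1 to 1663.6 (median 1179.7). The groups overlapped by 1 library at 24 h and were apart at 48 h. The log2 fold change was -1.08 (SE 0.15, adjusted p = 0.000994), or 0.473-fold, and it kept its call in all 22 fits without a single library. The processed pseudogene Gm5424, whose sequence derives from Ass1, had -1.06, and the 2 can share reads.

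Cps1, the mitochondrial enzyme that takes up ammonia, was 690.3, 366.7, 489.8 and 627.0 FPKM at 24 h, against 601.3 to 1030.5 (median 914.3), and 545.6, 279.9, 351.3 and 457.6 FPKM at 48 h, against 533.8 to 1038.3 (median 661.4). Below the untreated range were 2 treated libraries at 24 h and 3 at 48 h. It fell by 0.73 on the log2 scale (SE 0.15, adjusted p = 0.0126). Slc25a15, which exchanges ornithine and citrulline across the mitochondrial membrane, fell by 0.58 (adjusted p = 0.0293). Asl (-0.55, adjusted p = 0.0913), Otc (-0.26) and Arg1 (-0.09) were not called.

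Gls2, the liver glutaminase, was 54.0, 20.1, 27.6 and 38.6 FPKM with etomoxir at 24 h, against 44.3 to 78.8, and 58.0, 45.4, 51.8 and 72.5 FPKM at 48 h, against 65.6 to 123.0. At each time 1 treated library lay inside the untreated range. It fell by 0.83 on the log2 scale (adjusted p = 0.00629). Its gene overlaps Spryd4 on the other strand. Prodh, which starts proline breakdown and overlaps Dgcr6 on the other strand, had -1.06 (adjusted p = 0.0168). Hal, which removes ammonia from histidine, had -0.67 (adjusted p = 0.0189), and the aminotransferases Got1 and Gpt had -0.82 and -0.45 (adjusted p = 0.0368 and 0.0295). Aldh4a1, the enzyme after Prodh, fell by 0.50 (adjusted p = 0.0472), with all treated libraries below all untreated ones at both times, and Etnppl, which cleaves phosphoethanolamine, fell by 1.34 (adjusted p = 0.0189). Tdo2, which opens the ring of tryptophan, was the highest of the list at 0.47 (adjusted p = 0.104).

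Further genes of amino acid metabolism outside this list were chosen after their values were seen. Gnmt, the abundant enzyme that methylates glycine and so disposes of methyl groups, was 614.5, 479.9, 582.6 and 598.3 FPKM at 24 h, against 773.7 to 1108.8, and 417.2, 377.0, 489.7 and 641.4 FPKM at 48 h, against 613.9 to 1343.7. It had -0.78 (adjusted p = 0.00238). Acmsd, which diverts tryptophan carbon away from NAD synthesis, had -0.98 (adjusted p = 0.00105), and Amdhd1, of histidine breakdown, had -0.48 (adjusted p = 0.0034). Aldh1l1 (-0.71), Hgd (-0.73) and Ddc (-0.72) were called too (adjusted p from 0.0305 to 0.0472). Oplah, which opens 5-oxoproline to glutamate, rose by 0.42 (adjusted p = 0.0112). Cth, a member of the ATF4 list that makes cysteine from cystathionine, had -0.82 (adjusted p = 0.033), and lost its call when PHx24 replicate 4, PHx24_ETO replicate 3 or 4, or PHx48_ETO replicate 1 or 2 was left out (adjusted p up to 0.0705).

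Of 28 tested NRF2 targets 4 fell (14.3%, against 1.22% of all genes) and none rose. The median was 0.02, and -0.30 without PHx24_ETO replicate 2 (-0.67 at 24 h). All 4 were glutathione S-transferases, which join glutathione to reactive molecules. The count was 1 without PHx24_ETO replicate 3, and 2 without PHx24_ETO replicate 2 or 4 or PHx48_ETO replicate 1 or 2. Gstm3 was 147.1, 192.4, 33.0 and 53.6 FPKM with etomoxir at 24 h, against 563.6 to 2053.5 (median 871.9). Its levels at 48 h were 574.8, 494.1, 587.1 and 826.0 FPKM, against 526.6 to 2515.9 (median 813.2). The groups were far apart at 24 h and overlapped at 48 h. The main effect was -1.98 (adjusted p = 0.0357), with -3.53 at 24 h and -0.81 at 48 h (unadjusted p = 0.109). The difference between times was not called for it, and the main call was lost without PHx24_ETO replicate 2 (adjusted p = 0.0584). Gstm2 (-0.995, adjusted p = 0.0168), Gstm6 (-0.72, adjusted p = 0.0336) and Gstp1 (-0.56, adjusted p = 0.0212) had smaller main effects. These families share reads. Nqo1, another NRF2 target, had 0.06 (95% interval -0.49 to 0.61, adjusted p = 0.928), and -0.30 (adjusted p = 0.531) without PHx24_ETO replicate 2.

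Of 21 tested genes of the unfolded protein response, 4 rose (19%, against 1.38% of all genes) and none fell, with a median of 0.27 (0.49 at 24 h and 0.11 at 48 h). Herpud1, which helps to destroy misfolded proteins at the endoplasmic reticulum, rose by 0.73 (adjusted p = 0.0249), Dnajb9, a co-chaperone, by 0.51 (adjusted p = 0.02), and the disulfide isomerases Pdia4 and Pdia3 by 0.46 and 0.42 (adjusted p = 0.047 and 0.0334). Derl3, which belongs to the same degradation machinery, had the second largest rise under the naming rule, 1.48 (adjusted p = 0.0118). It was 4.17, 4.19, 11.1 and 13.0 FPKM with etomoxir at 24 h, against 1.31 to 4.23, and 0.760, 0.448, 0.389 and 1.19 FPKM at 48 h, against 0.178 to 0.646. The chaperone Hspa5 was not called (0.31, adjusted p = 0.198). Without PHx24_ETO replicate 3 none of the list was called, and 2 were without PHx24 replicate 3 or 4, PHx24_ETO replicate 4 or PHx48_ETO replicate 1. Of 24 tested genes of ATF4 and the integrated stress response, 1 rose (Fgf21) and 1 fell (Cth), or 8.33% called, against 2.6% of all genes. The list median was 0.16 (0.37 at 24 h, or 0.12 without PHx24_ETO replicate 2, and -0.06 at 48 h). At an unadjusted p under 0.05, 6 were higher and 3 lower. At 24 h alone 20 of the 24 were positive and 14 had an unadjusted p under 0.05, and at 48 h 10 were positive and 5 had it. Chac1 (1.35, adjusted p = 0.137) and Trib3 (0.64, adjusted p = 0.211) were not called. Ddit3 (0.07), Atf3 (-0.09) and Gdf15 (0.52), of the standing list, were not called either. Without PHx24_ETO replicate 2 they had 0.12, -0.48 and 0.08.

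**Figure D5:**
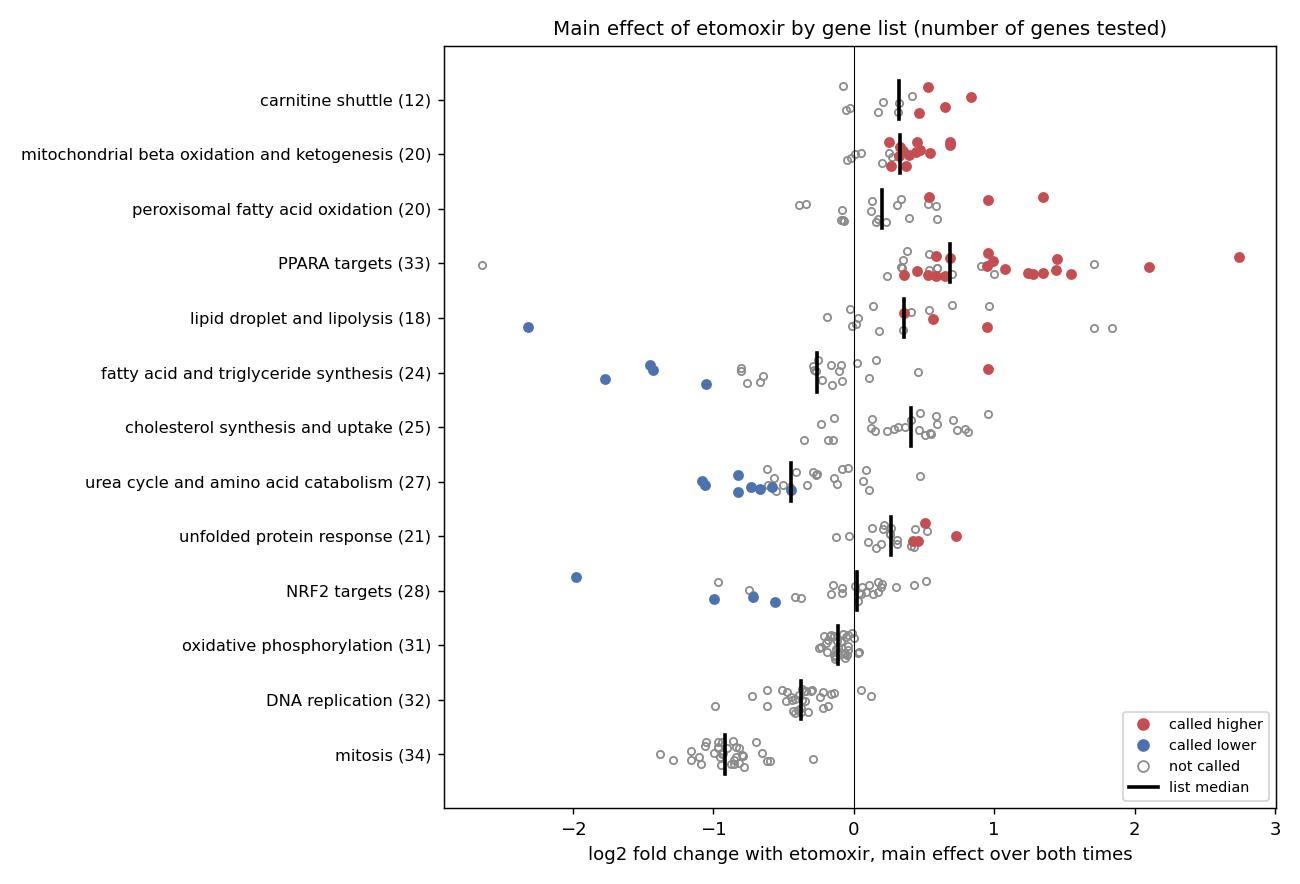
Log2 fold change of the main effect for each tested gene of 13 lists (dots), with the list median (black line); filled red dots were called higher, filled blue dots lower, open dots were not called. PPARA targets have the highest median (0.69) and mitosis genes the lowest (-0.92), the latter with no gene called.

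Most of the remaining lists held few or no called genes. The periportal hepatocyte list had 4 of 15 called (26.7%, against 2.6% of all genes). These were Apoa4, higher, and Hal, Gls2 and Ass1, lower, which all stand in lists above. None of 15 pericentral hepatocyte genes was called by edgeR. At an unadjusted p under 0.05, 1 of them was higher and 3 were lower, and DESeq2 called 1 higher. None of 34 mitosis genes was called by edgeR, although all 34 had a negative log2 fold change and the median was -0.92 (-1.68 at 24 h and -0.40 at 48 h). At an unadjusted p under 0.05, 20 were lower, DESeq2 called 7 and limma 5. Within 24 h alone 33 of the 34 had an unadjusted p under 0.05 (edgeR), and within 48 h alone 0. Mki67, the proliferation marker, was 4.54, 0.0364, 0.346 and 0.726 FPKM with etomoxir at 24 h, against 1.27 to 9.70 (median 5.15), and 11.1 to 17.4 at 48 h, against 8.96 to 19.8. Its main effect was -0.85 (adjusted p = 0.354). None of 32 DNA replication genes was called (median -0.37, or -0.23 without PHx24_ETO replicate 2, with 4 lower at an unadjusted p under 0.05 and none by DESeq2 or limma), and Ccnd1, which starts the hepatocyte cycle, had -0.43 (adjusted p = 0.249). Without PHx24_ETO replicate 1, the treated library with the highest Mki67 at 24 h, 6 mitosis and 3 replication genes were called lower.

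Of 25 tested genes of cholesterol synthesis and uptake edgeR called none. The median was 0.41 (0.24 without PHx24_ETO replicate 2), made of 0.84 at 24 h and -0.14 at 48 h, 10 were higher at an unadjusted p under 0.05, and DESeq2 called 2. Oxidative phosphorylation (31 genes, median -0.11, or -0.06 without that library) had none called by edgeR, 6 lower at an unadjusted p under 0.05 and 2 lower with DESeq2. Of 21 citric acid cycle genes (median -0.10) edgeR called Idh3a alone, at -0.35 (adjusted p = 0.0167). At an unadjusted p under 0.05, 7 of them were lower and 0 higher, and DESeq2 called 2 lower. Glycolysis and gluconeogenesis (24 genes), bile acids (17), p53 targets (18), acute phase (22) and growth hormone targets (22) had none called by edgeR. They had 6, 6, 1, 7 and 4 at an unadjusted p under 0.05, DESeq2 called 2, 2, 0, 3 and 1, and limma 0, 0, 0, 0 and 1. Cyp7a1, the rate-limiting enzyme of bile acid synthesis, had -0.34 (adjusted p = 0.778), Cdkn1a -0.06 (adjusted p = 0.909) and albumin (Alb) 0.15 (95% interval -0.15 to 0.44, adjusted p = 0.599). Without PHx24_ETO replicate 2, Cyp7a1 had -0.14 and Cdkn1a -0.41 (adjusted p = 0.178). Single genes of other lists rose: the receptor Nr1i3 (0.47, adjusted p = 0.0246), the clock output factor Tef (0.80, adjusted p = 0.0377) and the interferon-induced GTPase Iigp1 (0.80, adjusted p = 0.00238). Iigp1 was higher in all treated libraries at both times (61.0, 130.7, 76.6 and 60.7 FPKM against 36.0 to 57.0, then 78.6, 96.6, 87.1 and 90.3 against 38.2 to 67.1).

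Markers of other cells were checked, because whole liver was sequenced. Among 6 tested erythroid genes 2 were called lower (33.3%, against 1.22% of all genes). These were the alpha globins Hba-a1 (-1.49, adjusted p = 0.0472) and Hba-a2 (-1.58, adjusted p = 0.0377), which are near-identical copies. DESeq2 called 4 of the 6 lower and limma none. Klf1, another of the 6, went the other way (0.42) and was not called. It was 1.69, 2.07, 1.99 and 2.17 FPKM with etomoxir at 24 h, above the untreated 0.593 to 1.58. At 48 h its 0.423 to 1.1 FPKM overlapped the untreated 0.387 to 0.875. Hba-a1 was 49.2, 23.4, 54.0 and 28.6 FPKM with etomoxir at 24 h, against 61.2 to 154.5, and 24.9, 71.5, 82.0 and 89.0 FPKM at 48 h, against 47.6 to 487.3. The summed erythroid level was 92.3 to 176.9 FPKM with and 202.0 to 452.7 without etomoxir at 24 h, and 77.6 to 284.3 and 175.0 to 1296.6 FPKM at 48 h. In bulk tissue fewer cells of a type and less RNA per cell cannot be told apart. Hba-a1 kept its call in 6 and Hba-a2 in 12 of 22 fits without a single library. No marker of Kupffer cells, the liver's resident macrophages, was called by edgeR, DESeq2 or limma. All 10 were lower in the main estimate (median -0.41, 3 at an unadjusted p under 0.05), with -0.89 at 24 h and 0.04 at 48 h. Summed, they were 79.7 to 139.3 FPKM with and 138.1 to 258.7 FPKM without etomoxir at 24 h. The part of these cells in the other changes was not tested.

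The effect differed between the times for 3 genes (0.025% of those tested), none of which was part of the main effect. Cyp3a11, the main drug-oxidizing cytochrome of mouse liver, was 534.3, 372.9, 193.6 and 255.9 FPKM with etomoxir at 24 h, against 950.9 to 1433.0, but 1156.1, 887.9, 1055.8 and 1163.3 FPKM at 48 h, against 573.0 to 1176.1. Its effect at 48 h was higher than that at 24 h by 1.89 (log2). Its near-identical neighbour Cyp3a59 had a difference of 1.77, and Depdc1b, a gene of mitosis, of 3.23. For the difference, none was called when PHx24_ETO replicate 2, 3 or 4 or PHx48_ETO replicate 1 or 4 was left out. Only 1 was called without PHx48 replicate 2 or 7 or PHx48_ETO replicate 3, and 238 were called without PHx24_ETO replicate 1. With the full set, 1086 genes had an unadjusted p under 0.05 for the difference, and a shared effect is therefore not shown to be equal at both times.

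The genes not yet described that had been named for their large shared changes, at a mean of at least 2 FPKM, lie outside the lists. Tymp, thymidine phosphorylase, was 7.40, 17.1, 10.7 and 9.43 FPKM with etomoxir at 24 h, against 14.9 to 58.5, and 11.9, 12.7, 11 and 14.5 FPKM at 48 h, against 16.5 to 45.1. It fell by 1.41 on the log2 scale (adjusted p = 0.00571) and overlaps Ncaph2 on the other strand. Adam11 had -1.28 (adjusted p = 0.00629) and Paxx, a factor of DNA end joining that overlaps Clic3, -1.15 (adjusted p = 0.00629). Lgals4, a galectin, rose by 0.997 (adjusted p = 0.000994), with 9.39, 12.8, 7.56 and 8.48 FPKM against 2.57 to 5.95 at 24 h, and 9.23, 7.57, 5.59 and 11.4 FPKM against 2.94 to 5.35 at 48 h.

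In 22 genes (7.03% of the 313 and 0.183% of all tested) every treated library lay beyond every untreated library in the same direction at both times, 15 higher and 7 lower. They were picked by these values, which are given as a description. Besides those above they include Kdsr, of sphingolipid synthesis (log2 fold change 0.52), Klf11, a Krüppel-like factor (0.96), Lamb3, a laminin chain (1.19), Zbtb44 (0.37), Grpel2, a mitochondrial import co-chaperone (0.48), Ppp2r2d (0.57, and 0.37 without PHx24_ETO replicate 2) and March5, a ubiquitin ligase of mitochondria (0.26). Those that were lower are Gabbr2 (-0.84), Mfsd13a (-0.63), Mmd2 (-1.42), Nkx2-6 (-1.97), Pkdcc (-0.66), Fuca1, a lysosomal fucosidase (-0.24), and Aldh4a1. Of the 22, 19 kept their call in all fits without a single library, and 13 under all 12 other settings. Aldh4a1 kept its call in 6 of the 22 such fits and Pkdcc in 19. Among the genes of the lists, the call was kept in 5 of these fits for Plin2, 8 for Fitm2, 12 for Tef, 14 for Apoa1, Gstm3 and Creb3l3, 16 for Gstm6, 17 for Pdia3, 19 for Nr1i3 and 20 for Acot2. Because strand was not marked, reads of an overlapping gene on the other strand can add to Nr1i3 (Tomm40l), March5 (Cpeb3), Ppp2r2d (Mapk1ip1), Lamb3 (Hsd11b1 and G0s2), Nkx2-6 (1700092C10Rik), Ddit3 (Mars) and Ccnd1 (Oraov1).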

How the data were processed

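Liver RNA libraries were made with the NEBNext Ultra kit from polyadenylated RNA, per the labels' protocols. Read counts per gene and FPKM values were deposited by the authors in 1 table of 54532 genes, with gene length and coordinates. The submitters' processing notes name CASAVA 1.8, fastp, HISAT2 2.0.5, featureCounts 1.5.0-p3, DESeq2 1.20.0, GRCm38 and mm10; for roles, annotation release and strand setting, the sources used here give nothing. Without strand, overlapping genes share reads. The counts as deposited were tested by quasi-likelihood F tests in edgeR 4.0.16 under R 4.3.3 (TMM scaling, time and etomoxir as terms, 22 libraries, adjustment over 12021 genes). Each time and the difference came from a fit of 4 groups. SE is the log2 fold change divided by the square root of F. A change is shared if called with the same sign and unadjusted p under 0.05 at each time. The biological coefficient of variation common to all genes was 0.24, so for genes with many counts spread between libraries and not counting error set the precision. This need not hold for genes near 0 FPKM, such as Fgf21. Alternatives were DESeq2 1.42.0, limma 3.58.1 on log2(FPKM + 1) and on log2(FPKM + 0.1), other scalings and filters, replicate blocks and omitted libraries. Tested on simulated data for the main effect over 12021 genes, 55% of 100 genes changed by 0.5 (log2) and 89% of 100 changed by 1 were called, with 7 false calls. The simulated libraries had no effect of time, no library apart from its group and no muscle transcripts added. These figures therefore check the procedure and need not hold for the libraries here. Named genes were the 10 largest shared rises and falls with a mean FPKM of at least 2, without predicted genes, up to 3 called members per list, a standing list of 33 metabolic and cell cycle genes, and those whose effect differed between times. Members, gene lists and tests were chosen with earlier results of these data known. Genes marked above as chosen after their values were seen, and those apart at both times, fall outside this rule. Promoters were searched for other motifs too, which are not reported. Results of some single genes are not reported here.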

Additional observations from a re-analysis of the deposited data

Results flagged for a closer look

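Among 380 sets of 1 named gene in 1 group of 4 or 7 libraries, 39 had a library far from the rest by Dixon's test at its 95% value, over 33 genes. For normally distributed values chance alone flags about 1 set in 20. The test used FPKM without a log, and whether these values are so distributed was not tested. PHx24_ETO replicate 2 was the far library in 16 sets. Its FPKM was the highest of the 4 treated libraries at 24 h for Acot2 (18.8), Thrsp (28.3), Pex11a (95.6), Fitm2 (17.6), Pdk4 (71.7), Plin2 (919.0), Cidec (163.6), Nqo1 (22), Cdkn1a (42.7), Alb (19156.7), Creb3l3 (270.9), March5 (55.7), Grpel2 (15.3), Ppp2r2d (14.2) and Zbtb44 (4.25), and the lowest for Prodh (5.34). PHx24_ETO replicate 1 had the highest Mki67 (4.54 FPKM).

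Among treated libraries at 48 h, PHx48_ETO replicate 1 had the highest Slc22a5 (10.5 FPKM) and the lowest Fuca1 (20 FPKM), and PHx48_ETO replicate 3 had the highest Paxx (19.3), Fasn (39.7) and Mki67 (17.4).

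Among untreated libraries at 24 h, PHx24 replicate 5 had the highest Vnn1 (25.4 FPKM), Eci2 (35.7), Gstm2 (363.8) and Acot1 (13.2), and PHx24 replicate 6 the highest Fgf21 (6.02). At 48 h, PHx48 replicate 3 had the highest Scd2 (14.9), Fgf21 (0.987) and Cidec (14.8), PHx48 replicate 4 the highest Gstm2 (280.7), Plin2 (229.6) and Gstm3 (2515.9), and PHx48 replicate 5 the highest Cps1 (1038.3), Cpt1b (0.313) and Nkx2-6 (5.38) and the lowest Kdsr (1.66). PHx48 replicate 6 had the highest Gabbr2 (4.07) and PHx48 replicate 7 the highest Cdkn1a (35.7).

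The etomoxir effect differed between the times for Cyp3a11, Cyp3a59 and Depdc1b, by 1.89, 1.77 and 3.23 (log2, 48 h minus 24 h, edgeR's test of the difference).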

How the results depend on the processing

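The main effect called 313 genes, and 622 with DESeq2, 161 with no filter on low values and 181 without the 2 libraries rich in muscle transcripts (PHx24 replicate 1 and PHx48 replicate 3). Its higher and lower genes numbered 310 and 312 with DESeq2, 86 and 75 with no filter and 89 and 92 without the muscle libraries. With library totals as the only scaling, 83 were higher and 170 lower, and the median of all genes shifted by -0.0268, so the 166 to 147 split depends on scaling. Shared genes numbered 138 with no filter, 138 without the muscle libraries and 63 when p under 0.01 was asked at each time. The difference between times was called for 50 genes with DESeq2, 1 with no filter and 0 without the muscle libraries, where 3 were called otherwise. When each library was left out in turn, the main effect ranged from 134 to 465 genes, the higher genes from 70 to 228, the lower from 64 to 237, the shared from 104 to 298 and the difference from 0 to 238. Of the 74 called genes followed through these settings, 48 kept their call in every fit that left out 1 library, 45 with the replicate block and 43 with the block within time, and no named result reversed its direction in a setting in which it was called. The cause of the lost calls was not tested. Same-numbered libraries correlated at -0.113 to 0.418 in their deviations, not all above 0.1, so the numbers were not taken as pairs. With a replicate block 163 genes were called (69 higher, 94 lower), and with a replicate block within time 177 (82 higher, 95 lower) and 0 for the difference. With either block, the urea and amino acid list had 3 lower genes where it had 8, and the lipid synthesis list 1 where it had 4. With the replicate block and the block within time, the beta oxidation list had 8 and 5 higher genes where it had 13. The PPARA targets had 12 and 13 where they had 19. The carnitine shuttle list (4) and the peroxisomal list (3) kept their number of higher genes with either block. At this depth Fgf21 was at 0 FPKM in some untreated libraries, and Cpt1b was below the level tested.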

Other observations

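The called genes of the secretory pathway and of endothelium were picked after their values were seen, from no list, so they do not show that a group of genes changed. Sec23a (log2 fold change 0.34), Sec24a (0.32), Sec24d (0.39) and Sec16b (0.24), of the coat that buds from the endoplasmic reticulum, and Copb2 (0.34), of the coat that returns to it, were called, with Tmed5 (0.56), a cargo receptor, and Golph3 (0.19), a Golgi protein (edgeR adjusted p from 0.02 to 0.048). Their changes were small, and each had the same sign at both times.

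Some genes known from endothelium were called lower, namely Tie1 (-0.53, edgeR adjusted p = 0.02), Egfl7 (-0.58, adjusted p = 0.0336), Ephb4 (-0.46, adjusted p = 0.0343), Bcl6b (-0.85, adjusted p = 0.0464) and Ackr3 (-1.41, adjusted p = 0.0378). None of 12 tested sinusoidal endothelial markers was called by edgeR, DESeq2 or limma, although all 12 were lower in the main estimate (median -0.24, 3 at an unadjusted p under 0.05). Their summed level was 32.9 to 56.6 FPKM with and 52.0 to 66.5 FPKM without etomoxir at 24 h, and 31.4 to 74.8 and 35.2 to 65.6 FPKM at 48 h.

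The called genes that follow were also picked after their values were seen, from no list. Other called genes of lipid and energy metabolism outside the lists were Slc25a47, a liver carrier of the inner mitochondrial membrane (0.96, adjusted p = 0.0295 by edgeR), Gk, glycerol kinase (0.46, adjusted p = 0.0202), Acot12, an acetyl-CoA thioesterase (0.43, adjusted p = 0.0336), Inhbe, a liver activin chain (0.68, adjusted p = 0.0188), and Esrra, a nuclear receptor of mitochondrial genes (-0.42, adjusted p = 0.0481). Chrna4, a nicotinic receptor subunit, had mean levels of 0.333 and 0.172 FPKM at 24 h without and with etomoxir, and of 14.6 and 1.34 FPKM at 48 h (-2.66, adjusted p = 0.0166).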
